A study of Homo sapiens with 21 samples.

Results

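Reproducible Pol II S5P regions were compared with reproducible FOXA1 regions in CAMA1 cells, an established oestrogen receptor-positive breast cancer line that the labels give as FGFR1-amplified. Chromatin immunoprecipitation with sequencing (ChIP-seq) gave a peak list for each of 4 samples, 2 for Pol II S5P and 2 for FOXA1, out of 14 samples with a list and 21 samples in all. All cells had been held without estradiol for 48 h, at a passage below 10, and none of the 4 samples was transfected. A region was called reproducible when a peak of both lists of a target overlapped by at least 1 bp on chromosomes 1 to 22 or X, and the overlapping peaks were merged. This gave 9969 Pol II S5P regions and 104200 FOXA1 regions. Matching lists of H3K4me3 (34260 regions), H3K27ac (93699 regions) and FGFR1 (4736 regions) from untransfected cells served to describe them. The labels do not say whether the replicates of a target came from separate cultures, and each Pol II S5P sample is named for S5P while its antibody is listed as one against the Rpb1 C-terminal domain.

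FOXA1 is a forkhead transcription factor that can bind DNA within closed chromatin and open it, and in breast epithelium it marks the sites that the oestrogen receptor later uses, most of which are enhancers far from genes. Pol II S5P is RNA polymerase II whose largest subunit, Rpb1, carries phosphate on serine 5 of its C-terminal repeats. TFIIH adds that phosphate as transcription starts, so the form collects at promoters and just downstream of them, where polymerase pauses before elongation, and it is also found at active enhancers.

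Promoter sequences show what the classes of gene looked like at the start of transcription. Each is the RefSeq promoter window of GRCh38.p14, 250 bases before to 50 bases after the outermost annotated start, written 5′ to 3′ on the strand of the gene, with the forkhead motif in capitals. The motif was TGTTTAC or TATTTAC, searched on both strands; the 2 strings cannot match at the same position. PGK1 (chrX:78103998-78104297, plus strand) had the strongest Pol II S5P region of the genome with FOXA1 on it and held no motif. RELL2 (chr5:141636747-141637046, plus strand) had strong Pol II S5P with no FOXA1 region within 10 kb and no motif. SPDEF (chr6:34556280-34556579, minus strand), an ETS factor of luminal epithelium, had both targets on its promoter and a TATTTAC motif read on the other strand as GTAAATA, whose first base lies at -49. HEXIM1 (chr17:45148225-45148524, plus strand), the inhibitor of the elongation kinase P-TEFb, had Pol II S5P on the window and no motif, with FOXA1 beside the window. SUPT4H1 (chr17:58352152-58352451, minus strand), a subunit of the pausing factor DSIF, and MYB (chr6:135181058-135181357, plus strand), a transcription factor gene, were added after their values were seen, because each held a motif under FOXA1, with Pol II S5P at SUPT4H1 and none at MYB. The motif starts at -1 in SUPT4H1 and at -14 in MYB.
PGK1: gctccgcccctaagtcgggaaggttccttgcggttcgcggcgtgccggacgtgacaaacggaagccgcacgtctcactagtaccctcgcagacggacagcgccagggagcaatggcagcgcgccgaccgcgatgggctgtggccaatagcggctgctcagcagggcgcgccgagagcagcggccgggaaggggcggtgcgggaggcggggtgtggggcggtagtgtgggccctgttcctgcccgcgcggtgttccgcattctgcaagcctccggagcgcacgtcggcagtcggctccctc
RELL2: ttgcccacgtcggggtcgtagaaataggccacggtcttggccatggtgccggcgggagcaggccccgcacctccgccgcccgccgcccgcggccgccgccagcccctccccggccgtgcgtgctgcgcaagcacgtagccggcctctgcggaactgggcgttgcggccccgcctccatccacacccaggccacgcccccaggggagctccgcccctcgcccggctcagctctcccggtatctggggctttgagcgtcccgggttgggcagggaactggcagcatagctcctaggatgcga
SPDEF: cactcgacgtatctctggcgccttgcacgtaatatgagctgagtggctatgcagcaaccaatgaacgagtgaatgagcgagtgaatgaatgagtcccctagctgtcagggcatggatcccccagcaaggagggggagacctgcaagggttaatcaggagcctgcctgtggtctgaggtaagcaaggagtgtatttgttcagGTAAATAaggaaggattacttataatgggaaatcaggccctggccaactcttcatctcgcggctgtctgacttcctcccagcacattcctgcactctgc
HEXIM1: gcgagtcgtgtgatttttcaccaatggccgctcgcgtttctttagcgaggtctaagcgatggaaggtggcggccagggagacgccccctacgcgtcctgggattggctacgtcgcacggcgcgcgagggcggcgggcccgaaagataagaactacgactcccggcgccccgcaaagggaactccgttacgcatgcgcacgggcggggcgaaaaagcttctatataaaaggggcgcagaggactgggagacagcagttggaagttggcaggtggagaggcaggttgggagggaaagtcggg
SUPT4H1: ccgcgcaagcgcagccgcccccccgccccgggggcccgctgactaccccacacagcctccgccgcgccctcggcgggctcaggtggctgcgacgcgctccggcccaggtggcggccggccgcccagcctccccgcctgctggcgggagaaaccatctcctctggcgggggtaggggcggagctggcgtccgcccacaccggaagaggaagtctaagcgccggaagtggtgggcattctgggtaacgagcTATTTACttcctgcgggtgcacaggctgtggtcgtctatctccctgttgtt
MYB: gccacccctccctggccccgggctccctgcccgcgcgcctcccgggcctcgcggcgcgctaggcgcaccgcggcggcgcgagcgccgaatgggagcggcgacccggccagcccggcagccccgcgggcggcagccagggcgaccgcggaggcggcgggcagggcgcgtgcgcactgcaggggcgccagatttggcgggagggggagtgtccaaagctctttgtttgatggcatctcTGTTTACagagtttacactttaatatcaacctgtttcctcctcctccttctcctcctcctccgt

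The Pol II S5P lists held 18713 and 12267 peaks on the chromosomes used, and the FOXA1 lists 123582 and 127427. Of the merged peaks of Pol II S5P list 1, 54.5% overlapped list 2, against 88.0% in the other direction, while the FOXA1 lists shared 85.2% and 82.3%. The median peak summit stood on about 25 and 28 fragments in the Pol II S5P lists and on about 31 and 33 in the FOXA1 lists. FOXA1 thus had far more regions to overlap with than Pol II S5P. Strength below is the deposited fold enrichment, a linear ratio over background, and is compared only within a list. Gene lists were set beside the label of the cells. They were chosen with earlier results of these data known, so they are no independent check of it. Pol II S5P lay within 1 kb of an end of 26 of 40 luminal and oestrogen receptor genes. The same held for 1 of 30 basal and mesenchymal, 1 of 20 haematopoietic, 2 of 22 liver and 1 of 20 neuronal genes, against 38.9% of all protein-coding genes.

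FOXA1 overlapped 3986 of the 9969 Pol II S5P regions, or 40.0% (95% Wilson interval 39.0% to 40.9%, counting error only), and 5983 regions lacked it. When a single list stood for each target, the 4 pairings gave 36.7%, 37.7%, 38.6% and 39.6%. Within the overlapping regions, where the overlap itself keeps the summits near, the median distance from the Pol II S5P summit to the nearest FOXA1 summit was 189 bp in list 1 and 187.5 bp in list 2. Across all regions, 46.6% of Pol II S5P summits had a FOXA1 summit within 1 kb and 79.0% within 10 kb in list 1, and 2.71% had none within 50 kb. The share rested on the many moderate FOXA1 peaks. With the strongest 20000 peaks of each FOXA1 list alone it was 6.72%.

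Most Pol II S5P regions, 7218 or 72.4%, touched the 1-kb window around an end of a protein-coding gene, and 2751 were farther away and are called distal. FOXA1 was present at 39.7% of the gene-end regions and 40.6% of the distal ones, an odds ratio of 0.963 (95% Woolf interval 0.881 to 1.05), so that a difference was not detected in the reproducible regions. The single-list pairings did separate the classes, with 39.0% to 41.8% at gene ends and 33.9% to 35.8% at distal peaks. Distal did not mean far from every transcript: 1124 of the 2751 distal regions had a non-coding RefSeq gene's end or another annotated start within 1 kb. Of the other 1627 distal regions, 664 carried FOXA1 (40.8%).

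The 2 locations differed by where on the genome they lay. In 28 windows of 1 Mb that held over 10 times the mean number of Pol II S5P peaks (10 on chromosome 8, 8 on chromosome 1, 6 on chromosome 11 and 1 each on chromosomes 6, 9, 16 and 19), there were 1354 Pol II S5P regions, 889 of them distal. Inside these crowded windows FOXA1 was at 60.4% of gene-end regions and 37.2% of distal regions, an odds ratio of 2.57 (2.04 to 3.24). In the rest of the genome it was at 38.3% of gene-end and 42.3% of distal regions, an odds ratio of 0.848 (0.764 to 0.941). Both intervals cover counting error only, with regions treated as independent. The single-list pairings kept the gap inside the windows, with 47.5% to 54.9% against 26.2% to 30.2%. Outside them the pairings overlapped, with 38.3% to 40.9% at gene ends and 39.2% to 41.8% at distal peaks, so that the smaller gap was within the spread of the lists. Several of the crowded windows hold the 8p11 genes around FGFR1 or the 11q13 genes around CCND1. Copy number was not measured, and its part in these shares was not tested.

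**Figure D1:**
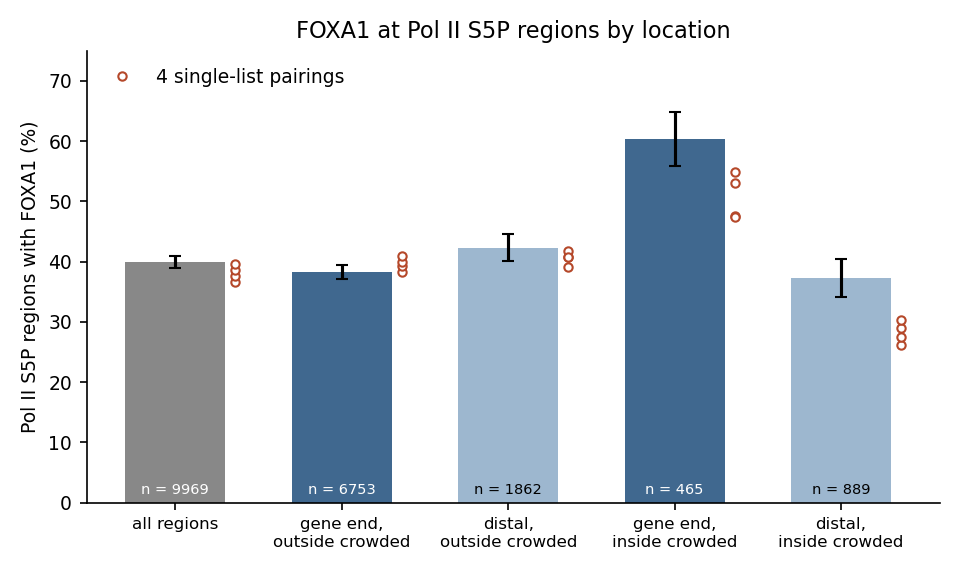
Share of reproducible Pol II S5P regions that overlap FOXA1 (vertical axis, percent) for all regions and for gene-end and distal regions outside and inside the 28 crowded 1-Mb windows. Bars are the shares, error bars are 95% Wilson intervals, n is the number of regions and open circles are the 4 single-list pairings. The gene-end bar inside the windows, at 60.4%, stands above the distal bar at 37.2%, while outside them the values are 38.3% and 42.3%.

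Pol II S5P regions with FOXA1 carried the marks of active chromatin more often than those without. H3K27ac, found on the nucleosomes of active promoters and enhancers, was at 96.8% of regions with FOXA1 and 91.4% of the others. The odds ratio was 3.43 (2.78 to 4.24) when gene-end and distal regions were kept apart by the Mantel-Haenszel method. H3K4me3, a mark of promoters, was at 93.6% and 87.0% (odds ratio 2.60, 2.22 to 3.05). FGFR1 was at 46.9% and 35.9% (odds ratio 1.61, 1.48 to 1.74). When regions were also kept apart by 5 equal groups of width, the FGFR1 odds ratio was 1.26 (1.15 to 1.38). The same groups gave 3.41 for H3K27ac and 2.87 for H3K4me3. Without the crowded windows the FGFR1 odds ratio was 1.37 (1.25 to 1.49). These intervals treat regions as independent, although neighbouring regions share chromatin and copy number. Without Pol II S5P replicate 2, where the longer list 1 stood alone, the odds ratios were 6.29 for H3K27ac and 4.48 for H3K4me3, and with the strongest 20000 FOXA1 peaks of each list they were 10.1 and 5.78. Comparing lists of the same replicate number gave 3.98 for H3K4me3. Other settings gave lower values. With -log10 q of at least 5 the odds ratios were 2.38 for H3K27ac and 1.80 for H3K4me3. Without the crowded windows they were 2.61 and 2.25. At gene ends the marks were near their ceiling, with H3K27ac at 99.7% of regions under FOXA1 and 99.0% of the rest. At gene ends outside the crowded windows a difference in H3K27ac was not detected (odds ratio 2.80, 0.947 to 8.29). The larger differences were distal, where H3K27ac was at 89.4% of regions under FOXA1 and 71.3% of the rest, and H3K4me3 at 81.4% and 60.1%. Neither mark was found at 8.14% of distal regions that had FOXA1 and at 25.5% of distal regions that lacked it. Outside the crowded windows these shares were 2.41% and 8.65%, and inside them 21.8% and 57.9%. The 93 distal regions outside the windows with neither FOXA1 nor a mark include 16 inside PIK3CA, described below. The FGFR1 difference at distal regions was not detected outside the crowded windows, where it was at 38.2% of regions under FOXA1 and 34.2% of the rest (odds ratio 1.19, 0.983 to 1.44).

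Stronger and wider Pol II S5P regions overlapped FOXA1 more often. The median fold enrichment of Pol II S5P was 9.34 in list 1 and 7.45 in list 2 at regions with FOXA1, and 8.24 and 6.56 at those without. Median widths were 654 and 538 bp. Regions were cut into 5 equal groups by strength and by width. From the weakest to the strongest group of Pol II S5P regions the FOXA1 share was 33.1%, 33.0%, 38.0%, 42.0% and 53.8%. From the narrowest to the widest group it rose from 30.2% to 58.2%. A wider region overlaps more by its width alone, and for regions above against below the median strength the odds ratio of FOXA1 was 1.69 (1.56 to 1.83) before and 1.37 (1.25 to 1.49) after stratifying by the 5 width groups. FOXA1 regions at gene ends gave the opposite order: the median fold enrichment of FOXA1 in lists 1 and 2 was 6.47 and 6.19 at those with Pol II S5P and 7.30 and 7.12 at the others. There 48.9% of the weakest of 5 equal groups of FOXA1 regions carried Pol II S5P, against 37.7% of the strongest group. Distal FOXA1 regions, the large majority, did not show this order. Their medians were 7.72 and 7.31 with Pol II S5P and 7.72 and 7.50 without, and from the weakest to the strongest group 1.69%, 1.01%, 1.13%, 1.03% and 1.54% carried Pol II S5P.

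**Figure D2:**
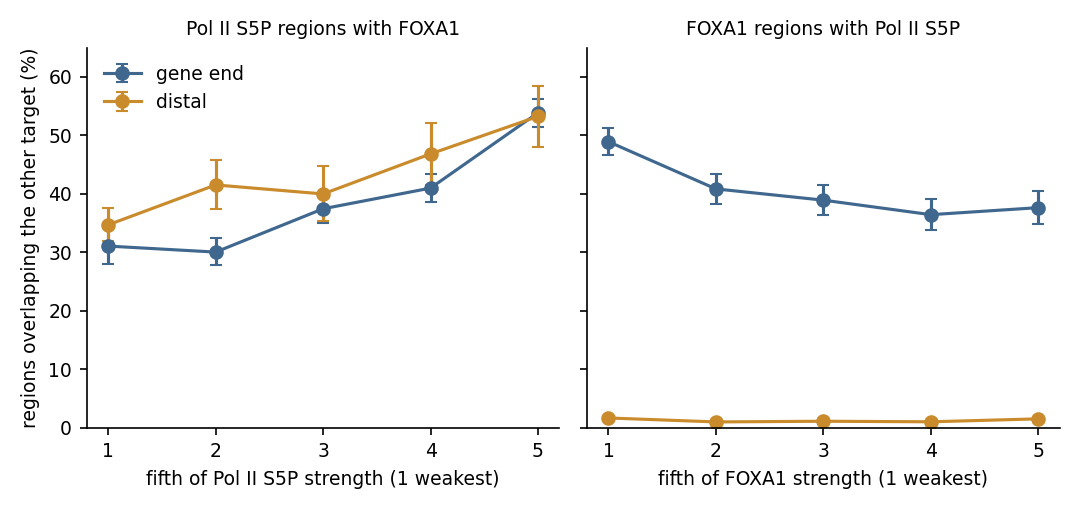
Left, share of Pol II S5P regions with FOXA1 (percent) in 5 equal groups by Pol II S5P strength. Right, share of FOXA1 regions with Pol II S5P (percent) in 5 equal groups by FOXA1 strength. Points are gene-end (blue) and distal (orange) regions with 95% Wilson intervals, and strength is the mean within-list percentile of fold enrichment. Both left lines have their highest point in the group of greatest strength, 53.9% at gene ends and 53.3% at distal regions, without a rise at each step, and the distal line at right lies between 1.01% and 1.69%.

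Seen from the FOXA1 side, Pol II S5P was rare. Of the 104200 FOXA1 regions, 4130 (3.96%) carried Pol II S5P. FOXA1 itself was mostly distal, with 97180 regions, 93.3% of the total, beyond 1 kb of any protein-coding gene end. Of the 7020 FOXA1 regions at gene ends, 41.1% carried Pol II S5P, against 1.28% of the distal ones, an odds ratio of 54.0 (50.2 to 58.1). Outside the crowded windows it was 68.9 (63.4 to 74.8), without Pol II S5P replicate 2 it was 34.0, with a gene-end window of 3 kb it was 31.1 and with the ends of every RefSeq gene, non-coding ones included, it was 33.8.

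At the level of genes, FOXA1 was denser near genes with Pol II S5P, and the ratio was largest close to the gene. Of 19974 protein-coding genes, 7764 (38.9%) had Pol II S5P within 1 kb of an end and 12210 did not. Of all genes, 32.3% had FOXA1 within 1 kb of an end, 67.9% within 10 kb and 91.5% within 50 kb. Within 1 kb the mean number of FOXA1 regions was 0.710 ± 0.795 (SD over genes) at genes with Pol II S5P and 0.219 ± 0.487 at the others. Within 10 kb the means were 2.46 ± 2.14 and 1.21 ± 1.52, and within 50 kb 7.67 ± 5.62 and 4.77 ± 4.43. A Poisson regression with its variance clustered on 1-Mb windows gave rate ratios of 3.24 (95% interval 3.06 to 3.43) at 1 kb, 2.03 (1.94 to 2.11) at 10 kb and 1.61 (1.55 to 1.67) at 50 kb. At 50 kb the Benjamini-Hochberg adjusted p over the 3 windows was 1.15e-125. Using a single list for each target, the ratios ranged from 3.26 to 3.72 at 1 kb, 2.05 to 2.11 at 10 kb and 1.62 to 1.65 at 50 kb, so that the gap between the groups of genes exceeded the spread of the lists. At least 1 FOXA1 region lay within 1 kb of 53.2% of genes with Pol II S5P and 19.0% of genes without, within 10 kb of 84.7% and 57.3%, and within 50 kb of 98.2% and 87.1%.

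The wider windows contain the narrow ones, so the rings between them were also counted, an addition made after the data were seen. From 1 to 10 kb the means were 1.75 and 0.994 (rate ratio 1.76, 1.68 to 1.84), and from 10 to 50 kb 5.22 and 3.56 (1.46, 1.41 to 1.53). FOXA1 was therefore denser around genes with Pol II S5P also more than 1 kb from their ends. The rings lie on both sides of an end, so they take in the inside of the gene and neighbouring genes. Among genes with H3K4me3 at an end the ring ratios were 1.46 (1.40 to 1.54) and 1.28 (1.23 to 1.33). Most genes without Pol II S5P are not marked as promoters, and the contrast was smaller among the 13303 genes with H3K4me3 at an end. There the ratios were 1.98 (1.87 to 2.09) at 1 kb, 1.58 (1.52 to 1.65) at 10 kb and 1.36 (1.31 to 1.41) at 50 kb. With terms for window length and the number of H3K27ac regions in the window, over all genes, they were 2.01 (1.90 to 2.13), 1.30 (1.25 to 1.34) and 1.11 (1.08 to 1.13). Genes with H3K4me3 but no Pol II S5P stood between the others, with means of 0.359, 1.55 and 5.62 FOXA1 regions in the 3 windows, against 0.102, 0.931 and 4.07 at genes with neither.

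Turned around, the share of genes with Pol II S5P rose with the number of FOXA1 regions around them. It was 8.03% of the 1707 genes with no FOXA1 region within 50 kb, 24.0% with 1 to 2, 38.0% with 3 to 5, 48.2% with 6 to 10, 57.3% with 11 to 20 and 73.2% of the 369 genes with 21 or more. Among genes with H3K4me3 the share went from 30.1% to 80.7%. Within 1 kb, 26.9% of genes with no FOXA1 region had Pol II S5P, against 59.7% of genes with 1 and 78.2% of genes with 2.

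**Figure D3:**
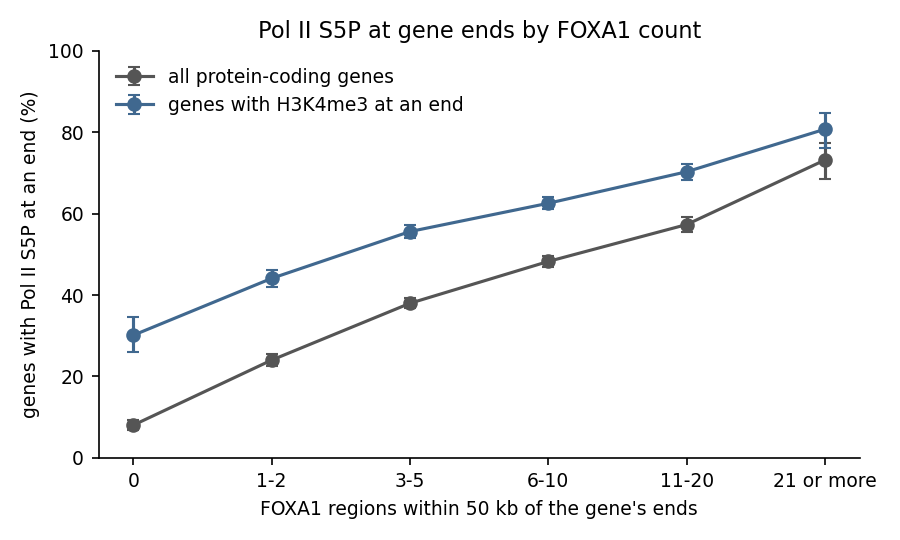
Share of genes with Pol II S5P within 1 kb of an end (vertical axis, percent) by the number of FOXA1 regions within 50 kb of the ends (horizontal axis), for all protein-coding genes and for those with H3K4me3 at an end, with 95% Wilson intervals. Both lines climb at each step, from 8.03% to 73.2% and from 30.1% to 80.7%.

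Within a gene, FOXA1 was more often at the end that carried Pol II S5P. Pol II S5P was at 1 end of 7099 genes and at both ends of 665. Of 5904 genes with Pol II S5P at 1 end and a start in the promoter table, 96.6% had it at the annotated start. FOXA1 lay within 1 kb of the Pol II S5P end in 46.4% of the 7099 genes and of the other end in 10.7%. It was at the Pol II S5P end alone in 2874 genes and at the other end alone in 341. Within 10 kb the shares were 75.1% and 56.3%, with 1959 and 629 such genes (exact McNemar test, two-sided, p = 9.33e-158). In the 4362 genes longer than 20 kb, whose 10-kb windows do not meet, the numbers were 1527 and 444 (p = 1.32e-138, same exact test). With the strongest 20000 FOXA1 peaks of each list the ratio of such genes at all lengths fell from 8.43 to 3.42 within 1 kb and from 3.11 to 1.60 within 10 kb. The exact tests treat genes as independent, although neighbouring genes share FOXA1 regions. Because most Pol II S5P ends were annotated starts, a preference for the Pol II S5P end cannot be told apart from one for the start.

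FOXA1 summits formed a sharp peak just upstream of the annotated start. Genes with Pol II S5P had 41.1 and 42.4 FOXA1 summits per 100 genes in the kilobase upstream of the start, in FOXA1 lists 1 and 2. The kilobase downstream had 18.5 and 18.8, and the mean from 2 to 10 kb on either side was 6.87 and 7.13 per kilobase. Genes with H3K4me3 and no Pol II S5P had 19.9 and 20.3 in the upstream kilobase. Genes with neither had 5.07 and 4.97 there, close to their level of 3.91 and 4.01 at 40 to 50 kb. Each class kept its order in both lists.

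**Figure D4:**
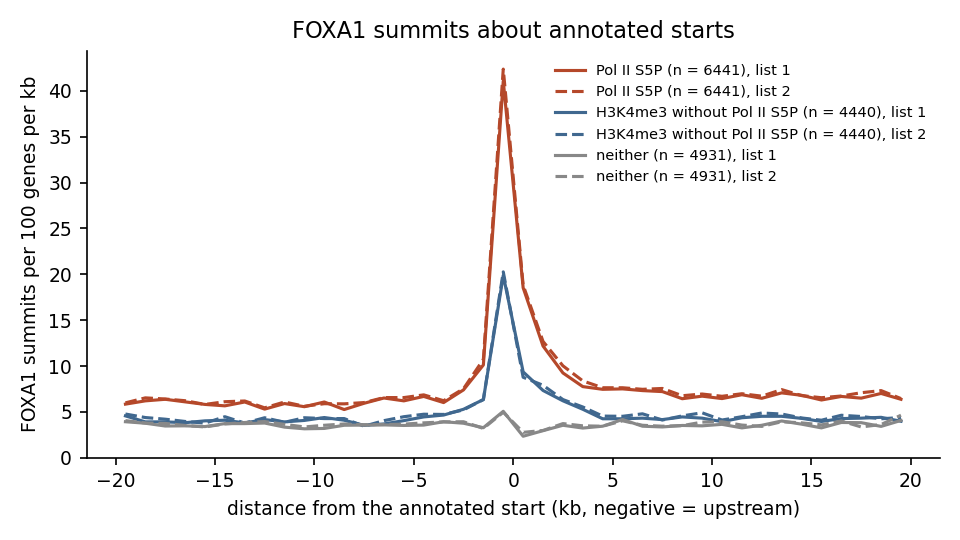
FOXA1 summits per 100 genes per kilobase (vertical axis) by distance from the outermost annotated start (kb, negative is upstream), for genes with Pol II S5P, with H3K4me3 alone and with neither; solid and dashed lines are FOXA1 lists 1 and 2. Genes with Pol II S5P reach 41.1 and 42.4 in the kilobase upstream of the start, and genes with neither reach 5.07 and 4.97.

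The forkhead motif separated the promoters in another way than Pol II S5P did. RefSeq promoter windows were matched for 15812 of the 19974 genes, and 726 of them (4.59%) held the motif. It was in 139 of 2174 promoters with both Pol II S5P and FOXA1 (6.39%, 5.44% to 7.50%), in 23 of 3695 with Pol II S5P alone (0.622%), in 155 of 919 with FOXA1 alone (16.9%, 14.6% to 19.4%) and in 4.53% of those with neither. The odds ratio was 10.9 (6.99 to 17.0) for promoters with both against Pol II S5P alone, and 0.337 (0.264 to 0.430) for promoters with both against FOXA1 alone. Promoters with Pol II S5P are rich in CpG and so poor in A and T, with a mean of 30.9 CpG per window under Pol II S5P alone, 26.1 under both and 18.2 under FOXA1 alone. With TGTTTAC alone the first ratio was 21.3 (10.3 to 43.9), and with the strongest 20000 FOXA1 peaks of each list it was 21.8 and the second 0.714 (0.460 to 1.11), no longer called. Within 5 groups of equal size by CpG number the odds ratios were 8.44 (5.45 to 13.05) and 0.427 (0.326 to 0.560). A motif match is a string of letters, and most promoters under FOXA1 held none in this window.

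Where a promoter under FOXA1 held the motif, FOXA1 was stronger, with or without Pol II S5P. In promoters with both targets its median fold enrichment was 16.7 in list 1 and 14.2 in list 2 over the 139 with a motif, against 6.05 and 5.81 over the 2035 without. In promoters with FOXA1 alone the values were 13.4 and 12.6 with a motif and 6.68 and 6.94 without. The motif lay close to the FOXA1 summit, at a median of 11.5 and 14 bp in promoters with Pol II S5P and 16 and 12 bp in those with FOXA1 alone. Only motifs in promoter windows that overlap a FOXA1 region were measured, which by itself keeps the distance short. Within 50 bp of the summit lay 69.7% and 75.4% of motifs with Pol II S5P and 74.2% and 77.9% of those with FOXA1 alone. At SPDEF, shown above, FOXA1 had 62.6-fold and 53.2-fold enrichment, and at SUPT4H1 24.4-fold and 24.7-fold. At MYB, with no Pol II S5P, it was 19.0-fold and 18.9-fold. PGK1 reached 64.3-fold in FOXA1 list 1 and 24.4-fold in list 2 with no motif, so its 2 lists differed by more than those of the other genes shown.

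**Figure D5:**
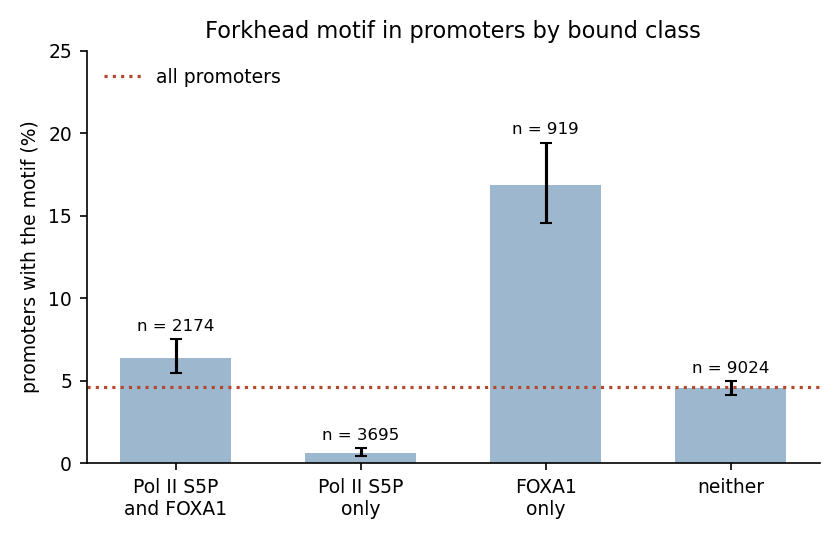
Share of promoter windows that hold TGTTTAC or TATTTAC on either strand (vertical axis, percent) by overlap with Pol II S5P and FOXA1, with 95% Wilson intervals and the number of promoters; the dotted line is the share of all promoters. The share is 16.9% under FOXA1 alone, 6.39% under both and 0.622% under Pol II S5P alone.

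The 8 genes of strongest Pol II S5P whose region overlapped FOXA1 were PGK1, CCND1, LOC124902704, TUBB4B, BRD2, KRT19, WDR74 and RPS3. PGK1, which encodes the glycolytic enzyme phosphoglycerate kinase, had Pol II S5P of 88.4-fold and 89.6-fold, the highest value of both lists, at chrX:78103693-78104461. A peak list does not tell fragments of the cells' own chromosomes from fragments of added DNA with the same sequence, and for PGK1 this was not tested. CCND1, which encodes cyclin D1, lay under a Pol II S5P region of 43.0-fold and 33.6-fold that spans chr11:69637987-69657021 and holds 6 FOXA1 regions, the strongest 75.7-fold and 68.4-fold. LOC124902704 shares that region. BRD2, a bromodomain protein of acetylated chromatin, had Pol II S5P of 42.1-fold and 33.3-fold over 4 FOXA1 regions. KRT19, a keratin of luminal epithelium, had 39.1-fold and 33.6-fold, with FOXA1 of 23.2-fold and 23.8-fold. FOXA1 at TUBB4B, a tubulin gene, was weak beside these at 6.47-fold and 6.19-fold. The rule used Pol II S5P strength and the overlap, so these are descriptions. CCND1, LOC124902704, TUBB4B and RPS3 lie in crowded windows.

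Strong Pol II S5P also occurred far from FOXA1. The genes of strongest Pol II S5P with no FOXA1 region within 10 kb included RPS2, RELL2, SOCS1, CCDC87, UBE2S, POR and CHRAC1, and none of these 7 lies in a crowded window. RPS2, a ribosomal protein gene, had Pol II S5P of 26.7-fold and 24.2-fold, with the nearest FOXA1 summit 18698 bp from an end. RELL2, shown above, had 26.7-fold and 19.9-fold. SOCS1, an inhibitor of cytokine signalling, had 25.2-fold and 20.2-fold. All 7 had FOXA1 within 50 kb, from 1 region at UBE2S to 5 at SOCS1, CCDC87, POR and CHRAC1.

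The genes with the most FOXA1 within 50 kb were ELAPOR1 and TRPS1 with 47 regions each, NSD3 and RNF169 with 46 and XRRA1 with 45 among those with Pol II S5P. TRPS1, a GATA-type repressor of luminal cells, had weak Pol II S5P of 7.36-fold and 5.22-fold, and NSD3, a histone methyltransferase gene at 8p11, had 29.6-fold and 25.1-fold. Without Pol II S5P the leaders were ADAM18 with 46, ADAM2 with 42, RAP1A with 41, FTO with 40 and TMIGD3 with 38. ADAM18 and ADAM2, which encode sperm surface proteins, also lack H3K4me3 at their ends. Of these 10 genes only FTO lies outside the crowded windows.

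The luminal genes had many FOXA1 regions whether or not Pol II S5P was there. The 40 genes had a median of 14 FOXA1 regions within 50 kb, from 5 to 31, against 5 over all genes, and 28 had FOXA1 within 1 kb and 39 within 10 kb, where the shares of all genes were 32.3% and 67.9%. The list was chosen with earlier results of these data known, so its direction is no independent evidence. Of the 26 with Pol II S5P, 19 had FOXA1 inside the strongest Pol II S5P region, while this held for 39.6% of all genes with Pol II S5P. XBP1, a regulator of secretory proteins, had Pol II S5P of 19.9-fold and 18.6-fold with 3 FOXA1 regions inside. A Pol II S5P region of 23.4-fold and 17.5-fold lay within 1 kb of an outer end of both KRT8 and KRT18, the paired keratins of luminal cells. The 1 annotated start of KRT8 had no Pol II S5P within 1 kb. The FOXA1 gene itself had 5 FOXA1 regions within 1 kb of its ends, the strongest 31.1-fold and 27.9-fold. That region and the strongest Pol II S5P region, of 10.0-fold and 7.23-fold, lay at the downstream end. The annotated start of the gene also had both targets within 1 kb. At GATA3, a luminal lineage factor, the strongest Pol II S5P region at an end, of 12.2-fold and 15.0-fold, lay at the downstream end. Of its 6 annotated starts, 3 had Pol II S5P within 1 kb and 2 had FOXA1. Pol II S5P without FOXA1 in the region was found at CDH1, the epithelial cadherin gene, with 18.6-fold and 15.3-fold, and at EPCAM, whose nearest FOXA1 summit was 8413 bp from an end.

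The 14 luminal genes without Pol II S5P at an end were ESR1, TFF1, TFF3, GREB1, PGR, AGR2, AGR3, TFAP2B, MYB, NRIP1, RARA, ANKRD30A, BCL2 and PDZK1. All 14 had FOXA1 inside the gene, which held for 57.2% of all genes and 48.0% of those without Pol II S5P. Of the 14, 8 had FOXA1 within 1 kb of an end, against 32.3% and 19.0%. TFF1, TFF3, GREB1 and PGR are textbook targets of the oestrogen receptor, and in these cells without estradiol the strongest FOXA1 region within 1 kb of an end was 21.7-fold and 19.5-fold at TFF1, 29.0-fold and 30.2-fold at TFF3, 4.80-fold and 3.75-fold at GREB1 and 11.9-fold and 7.87-fold at PGR. No sample with estradiol was analysed here, so the part of its absence was not tested. ESR1, the oestrogen receptor gene, had 38 FOXA1 regions inside the gene and 1 Pol II S5P region. None of its 6 annotated starts had Pol II S5P within 1 kb, while 3 had FOXA1. RARA had Pol II S5P at 1 of its 3 annotated starts and not at the outer ends.

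Among 36 genes of the Pol II start and pausing machinery, Pol II S5P was at 28, and FOXA1 within 1 kb of 20, within 10 kb of 30 and within 50 kb of all 36, with a median of 5 regions as over all genes. The shares of all genes were 38.9% for Pol II S5P and 32.3%, 67.9% and 91.5% for FOXA1, so the count within 50 kb lay near that of genes in general. CDK7, the TFIIH kinase that phosphorylates serine 5, had Pol II S5P of 8.90-fold and 6.33-fold with FOXA1 in the region. HEXIM1 had the strongest Pol II S5P of the list, 26.7-fold and 21.1-fold, with FOXA1 of 16.3-fold and 18.9-fold within 1 kb of an end. CDK12, an elongation kinase gene, had FOXA1 of 31.3-fold and 26.8-fold beside modest Pol II S5P of 8.68-fold and 5.66-fold. Pol II S5P without FOXA1 within 1 kb was found at SUPT5H, the other DSIF subunit, with 13.1-fold and 10.4-fold, and at SSU72, a phosphatase of serine 5, with 11.8-fold and 7.23-fold. LARP7, which holds the elongation kinase P-TEFb inactive, had no Pol II S5P region at an end and FOXA1 of 19.2-fold and 18.0-fold within 1 kb of one.

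Other gene groups placed these values, to be read against 38.9% of all genes with Pol II S5P and, for FOXA1, 32.3% within 1 kb and 67.9% within 10 kb. Pol II S5P was at 74 of 75 ribosomal protein genes, of which 44 had FOXA1 within 1 kb, and their median of 5 FOXA1 regions within 50 kb equalled that of all genes. It was at 22 of 31 immediate early genes and at 26 of the 30 genes for heat shock and unfolded proteins, with FOXA1 within 1 kb of 22 and 21. It was at 10 of 12 Pol II subunit genes, with FOXA1 within 1 kb of 4, at 25 of 34 cell cycle genes, with FOXA1 within 1 kb of 19, and at 6 of 18 forkhead genes, with FOXA1 within 1 kb of 7, both near the shares of all genes. Basal and mesenchymal genes had FOXA1 within 1 kb in 7 of 30 cases and within 10 kb in 19, from which no difference from all genes is read. Of the 23 genes of the 8p11 list 19 had Pol II S5P, with a median of 21 FOXA1 regions within 50 kb, and of the 11 genes of the 11q13 list 7 had it, with a median of 13. All genes of both of these lists lie in crowded windows.

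The strongest distal Pol II S5P regions fell into distinct kinds. With FOXA1, the first was chr3:93470239-93470922, 402470 bp from the nearest protein-coding gene end (PROS1), with Pol II S5P of 88.0-fold and 89.3-fold and FOXA1 of 83.7-fold and 75.2-fold. The next, chr16:46389415-46391100 near SHCBP1, had 75.0-fold and 75.3-fold Pol II S5P and 76.4-fold and 70.5-fold FOXA1. Both lie near a centromere and carried H3K4me3, H3K27ac and FGFR1 as well. At the first, FOXA1 had the highest value of both FOXA1 lists, which may be capped. Whether the signal at these places reflects binding was not tested. The other 3 overlap non-coding RNA genes: MALAT1 at chr11:65496817-65508358 with 60.4-fold and 53.6-fold Pol II S5P and 5 FOXA1 regions, the small nuclear RNA gene RNU5E-1 at chr1:11907956-11910149, and SCARNA2 at chr1:109099895-109101232. Without FOXA1, the 5 strongest all lay inside PIK3CA, the gene of a lipid kinase subunit. The strongest, chr3:179198688-179199311, had 85.5-fold and 86.7-fold Pol II S5P. PIK3CA held 16 distal Pol II S5P regions, of 316 to 645 bp, and none of the 16 carried FOXA1, H3K4me3, H3K27ac or FGFR1. The annotation used here gives no exons, so their place within the gene was not resolved. As at PGK1, whether these fragments came from the chromosome or from added DNA was not tested, so the PIK3CA values are given as deposited and not as polymerase on the gene.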

How the data were processed

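The authors deposited 1 peak list per library; Bowtie2, SAMtools, Picard, MACS2 and the build hg38 are named in the submitters' processing notes without versions or roles. A deposited row holds a fold enrichment (a linear ratio), a -log10 p-value and a -log10 q-value from the authors' peak caller. In the 4 lists no deposited fold enrichment came with more than 1 -log10 p-value (tolerance 0.01), so each list had been called against 1 genome-wide background, and neither copy number nor input was visibly corrected for. The highest value equalled 401 steps of 1 fragment in each list and may be capped. Peak names in the deposited FOXA1 lists read FOXA2, and the labels were followed. Total read counts are not given in the sources used here. The share of rows off chromosomes 1 to 22 and X was 0.0501% to 0.720%.

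Peaks were merged and compared in Python 3.11.15 with numpy 2.4.6, pandas 2.3.3, scipy 1.17.1 and statsmodels 0.14.6. Gene ends and promoters are those of RefSeq (GRCh38.p14, the primary assembly of hg38); an end was given 1 kb to each side. Odds ratios carry Woolf intervals and were called where the 95% interval left out 1; counts were fitted by Poisson regression clustered on 1-Mb windows and adjusted over 3 windows. The Woolf intervals and the regression were tested on simulated data. For the Woolf intervals each region was drawn independently, so they were not tested where neighbouring regions resemble each other.

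The members, the 14 gene lists (402 symbols, all matched), the rule for named genes and the tests were chosen with earlier results of these data known. The rule took the 8 genes of highest Pol II S5P percentile with FOXA1 in the region and the 8 without FOXA1 within 10 kb, the 5 genes with and the 5 without Pol II S5P with most FOXA1 within 50 kb, the 5 strongest distal regions of each kind, and members of the luminal and the Pol II kinase and pausing lists. SUPT4H1 and MYB sequences, the count over PIK3CA and the annotated starts of the luminal genes were added after their values were seen. Some genes that the rule took are not reported here.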

Additional observations from a re-analysis of the deposited data

Results flagged for a closer look

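The difference between gene-end and distal Pol II S5P regions in their FOXA1 share was not the same inside and outside the crowded 1-Mb windows. The odds ratio was 2.57 (2.04 to 3.24) inside and 0.848 (0.764 to 0.941) outside. The inside value was 3.04 times the outside value (95% interval 2.36 to 3.91, for the ratio of the 2 odds ratios). These intervals cover counting error only and treat regions as independent, although many regions share a window. The windows were themselves chosen by their number of Pol II S5P peaks. Of the distal regions inside the windows 86.8% lay away from every annotated gene end and start, against 45.9% of those outside. The lists carry no correction for copy number, and its part in the difference was not tested.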

How the results depend on the processing

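The share of Pol II S5P regions with FOXA1, 40.0%, was 36.2% with -log10 q of at least 5, 35.9% with reciprocal overlap of 50%, 30.7% where a FOXA1 summit had to lie inside the region, 6.72% with the strongest 20000 FOXA1 peaks of each list and 33.3% to 46.2% when each library was left out in turn, its partner's whole list then standing for the target. The odds ratio of FOXA1 at gene-end over distal Pol II S5P regions, 0.963 and not called, was 0.805 with the stricter q, 0.539 with the strongest 20000 peaks, 0.848 without the crowded windows and 0.896 with a gene-end window of 3 kb, all called, and turned above 1 without either Pol II S5P replicate (range over the 4 left-out libraries 0.980 to 1.27, with 1.27 without replicate 1 and 1.16 without replicate 2). The replicate numbers share only a number: Pol II S5P peaks found in list 1 alone overlapped FOXA1 list 1 in 28.2% and list 2 in 28.5% of cases. With the replicate block, comparing same-numbered lists, the share was 38.1% and this odds ratio 1.26, the reverse direction; the block changed no other call. The share of FOXA1 regions with Pol II S5P, 3.96%, ran from 3.86% to 5.80% over the left-out libraries, the highest without Pol II S5P replicate 2. The motif odds ratio of promoters with both targets over FOXA1 alone was 0.714 and no longer called with the strongest 20000 peaks, which leave fewer promoters. The cause of the other changes was not tested. In all, 156 of the 164 alternative odds and rate ratios over 12 results kept direction and call. Of 112 alternative counts over 4 gene lists 100 stayed within 1.5 times. Part of these could not change, so that number overstates their stability. A FOXA1 count does not depend on a left-out Pol II S5P library, nor a Pol II S5P count on a change to the FOXA1 lists alone. With the strongest 20000 FOXA1 peaks, FOXA1 within 1 kb fell from 28 to 14 luminal and from 44 to 5 ribosomal protein genes. The number of lists per target limits the precision, weak peaks rest on few fragments, and a region absent from a list was not detected at this depth.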
